A study of Homo sapiens with 18 samples.

Results

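The genes described here encode the proteins of the mitochondrial ribosome and were chosen by name and level. A gene ID was taken where its symbol was MRPL or MRPS followed by a number and at most 1 letter, and where its mean over the 18 libraries was at least 1 CPM (reads per 1000000 of the scaled library). The name pattern matched 77 symbols and 76 of them passed, out of 14643 gene IDs with that mean level and 40184 gene IDs in the table. Of the 76, 48 had MRPL symbols and 28 had MRPS symbols. The level rule split the 77 at a wide gap. MRPS28, the lowest gene taken, had a mean of 1.26 CPM, and MRPS24, the gene left out, had 0.345 CPM.

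The mitochondrial ribosome sits in the mitochondrial matrix and translates the few messenger RNAs that mitochondrial DNA encodes, all of them for membrane subunits of the respiratory chain and the ATP synthase. Its RNA is copied from mitochondrial DNA, but every one of its proteins is encoded in the nucleus, made in the cytosol and imported. In acute myeloid leukaemia, drugs that block mitochondrial translation, such as the antibiotic tigecycline, are known to harm leukaemic cells. By the unified naming of ribosomal proteins, 25 of the 76 genes encode small-subunit proteins, which bind the messenger RNA and the decoding end of the transfer RNA. Another 50 encode large-subunit proteins, which hold the site where peptide bonds are made. MRPS18A and MRPS30 are MRPS by symbol but are large-subunit proteins in that naming (mL66 and mL65), and MRPS36 is no longer counted as a subunit. The proteins of 44 genes are classed as having a bacterial counterpart, and the other 32 as mitochondria-specific. Those 32 include MRPS36, and also MRPS18A and MRPS18B, which descend from a bacterial gene as described below. The genes lie on 21 chromosomes.

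RNA-seq was done on 3 human cell lines of acute myeloid leukaemia, each given DMSO or RMC-4550 (500 nM) for 24 h. RMC-4550 is an allosteric inhibitor of the phosphatase SHP2, which relays receptor tyrosine kinase signals to RAS. Molm-14 and MV4-11 carry FLT3-ITD, an internal tandem duplication in the receptor kinase FLT3. SKNO-1 carries the KIT mutation N822K and was the only line grown with GM-CSF (10 ng/mL), in both its DMSO and its RMC-4550 cultures, so line and growth factor cannot be told apart. Each of the 6 groups had 3 samples labelled as biological replicates of 1 cell line, and nothing in the labels says how the cultures were kept apart, so p-values measure the spread between these samples. The comparisons asked which genes changed with RMC-4550 in each line and whether the change differed between lines.

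Read totals ran from 17434810 to 19959917 per library, and the 76 genes took 0.243% to 0.313% of them. Of 8 myeloid markers, 6 were at or above 1 CPM in every library, including PTPRC, SPI1 and CD33, while the progenitor marker CD34 stayed under 1 CPM. Of 10 markers of other blood cells, 6 were under 1 CPM in every library, among them CD3E, CD3D, MS4A1 and HBA1. NCAM1, at 4.55 to 148 CPM, was above it in every library. MPO ranged from 0.634 to 437 CPM. The share of reads from mitochondrial genes was 5.07% to 7.02% in 14 libraries and 10.52% to 15.0% in the other 4. Those 4 were Molm-14 RMC-4550 replicate 2, MV4-11 DMSO replicates 1 and 3, and MV4-11 RMC-4550 replicate 1. Values without them are given beside the results they moved most.

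The promoters of 5 genes are printed. MRPL17, MRPL3, MRPL51 and MRPL52 were among the members called lower after RMC-4550 in all 3 lines. MRPS6 was the only member called higher in the fit over all 18 libraries. MRPL19, MRPL39 and MRPS5 were also called lower in all 3 lines. Their windows, not printed, held none of the 3 motifs described below. The printed set thus does not show how common matches are among members that fell. MRPL51 was chosen for its printed window after its values were seen. Each window is 300 bases from RefSeq (GRCh38.p14), 250 before the gene's start and 50 from the start on, written 5′ to 3′ on the gene's strand. Capitals mark matches to 3 motifs searched on both strands: CCGGAAG (the ETS family core, CTTCCGG on the other strand), the NRF1 core (GCGC, then any base, then TGCGC) and AAGATGGC (YY1). ETS and YY1 matches shared bases in 0 member windows.

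MRPL17, chr11:6683291-6683590, minus strand, with 1 NRF1 match: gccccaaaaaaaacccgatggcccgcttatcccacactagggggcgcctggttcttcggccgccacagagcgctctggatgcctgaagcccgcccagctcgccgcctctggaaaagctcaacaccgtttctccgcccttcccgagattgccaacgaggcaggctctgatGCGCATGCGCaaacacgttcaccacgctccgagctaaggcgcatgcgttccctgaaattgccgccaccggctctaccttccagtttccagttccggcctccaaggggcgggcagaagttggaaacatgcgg
MRPL3, chr3:131502922-131503221, minus strand, with 1 ETS match: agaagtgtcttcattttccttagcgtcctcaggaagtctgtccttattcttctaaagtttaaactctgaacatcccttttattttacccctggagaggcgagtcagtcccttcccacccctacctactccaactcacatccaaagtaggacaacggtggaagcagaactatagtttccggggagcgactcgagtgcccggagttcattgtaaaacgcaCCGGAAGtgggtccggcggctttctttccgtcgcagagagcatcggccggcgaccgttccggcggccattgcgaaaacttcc
MRPL51, chr12:6493213-6493512, minus strand, with 2 ETS matches and 1 YY1 match: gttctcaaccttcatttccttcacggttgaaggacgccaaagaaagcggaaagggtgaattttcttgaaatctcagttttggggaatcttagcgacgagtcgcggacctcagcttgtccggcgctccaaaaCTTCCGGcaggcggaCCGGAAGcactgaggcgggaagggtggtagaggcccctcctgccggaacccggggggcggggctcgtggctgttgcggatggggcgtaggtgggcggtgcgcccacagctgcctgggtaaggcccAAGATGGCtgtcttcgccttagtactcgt
MRPL52, chr14:22829637-22829936, plus strand, with 1 ETS match and 2 YY1 matches: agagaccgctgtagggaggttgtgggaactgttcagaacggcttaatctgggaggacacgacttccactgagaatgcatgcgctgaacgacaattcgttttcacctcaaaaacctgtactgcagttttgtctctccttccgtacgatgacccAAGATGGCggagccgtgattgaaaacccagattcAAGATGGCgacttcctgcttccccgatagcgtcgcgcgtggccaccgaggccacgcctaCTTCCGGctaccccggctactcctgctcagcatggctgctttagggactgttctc
MRPS6, chr21:34073328-34073627, plus strand, with none of the 3: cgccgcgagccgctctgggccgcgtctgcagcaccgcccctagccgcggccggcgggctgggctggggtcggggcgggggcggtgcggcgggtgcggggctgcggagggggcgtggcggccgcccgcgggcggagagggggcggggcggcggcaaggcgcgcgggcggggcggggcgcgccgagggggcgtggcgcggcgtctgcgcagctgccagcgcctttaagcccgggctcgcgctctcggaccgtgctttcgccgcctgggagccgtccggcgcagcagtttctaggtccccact

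A window was found for 67 of the 76 genes. Some genes had more than 1 window, and a gene was counted where any of its windows held a match. ETS matches were found for 29 of these 67 genes (43.3%, against 12.2% of all 27305 genes with windows of the same length). YY1 matches were found for 20 (29.9% against 3.52%) and NRF1 matches for 9 (13.4% against 6.98%). The E-box CACGTG was found for 9 (13.4% against 8.77%). TATAAA was found for 3 (4.48% against 13.99%). At least 1 of the ETS, NRF1 and YY1 letters was found for 46 genes, or 68.7%, against 20.01% of all genes with a window. Both an ETS and a YY1 match were found for 8 genes, not necessarily in the same window. The median GC content, over genes, was 60.0% for the members' windows and 58.3% for all. The 27305 genes were not filtered by type or level, unlike the members, so these shares do not compare members with other expressed genes.

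In DMSO, the 76 genes together came to 3348 ± 10.0 CPM for Molm-14, 3034 ± 116 CPM for MV4-11 and 2807 ± 75.8 CPM for SKNO-1 (mean ± SD, n = 3 in each). As a share of all reads the 3 lines were close, at 0.307%, 0.297% and 0.305%. The order in CPM was thus not seen in the share of reads, and the authors' scaling factors, which set the scale of the CPM, ran from 0.890 to 1.11. After RMC-4550 the sum was 2756 ± 61.6 CPM for Molm-14, 2757 ± 130 CPM for MV4-11 and 2360 ± 38.1 CPM for SKNO-1 (n = 3 in each). The treated libraries were all below the DMSO libraries in each line. The mean sum changed by -17.7% for Molm-14, -9.13% for MV4-11 and -15.9% for SKNO-1. As a share of reads it changed by -18.03%, -5.91% and -14.2%, and there MV4-11 RMC-4550 replicate 1, at 0.292%, was above MV4-11 DMSO replicate 2, at 0.291%. These are shares of bulk RNA, so fewer cells of a kind and less RNA per cell cannot be told apart.

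**Figure D1:**
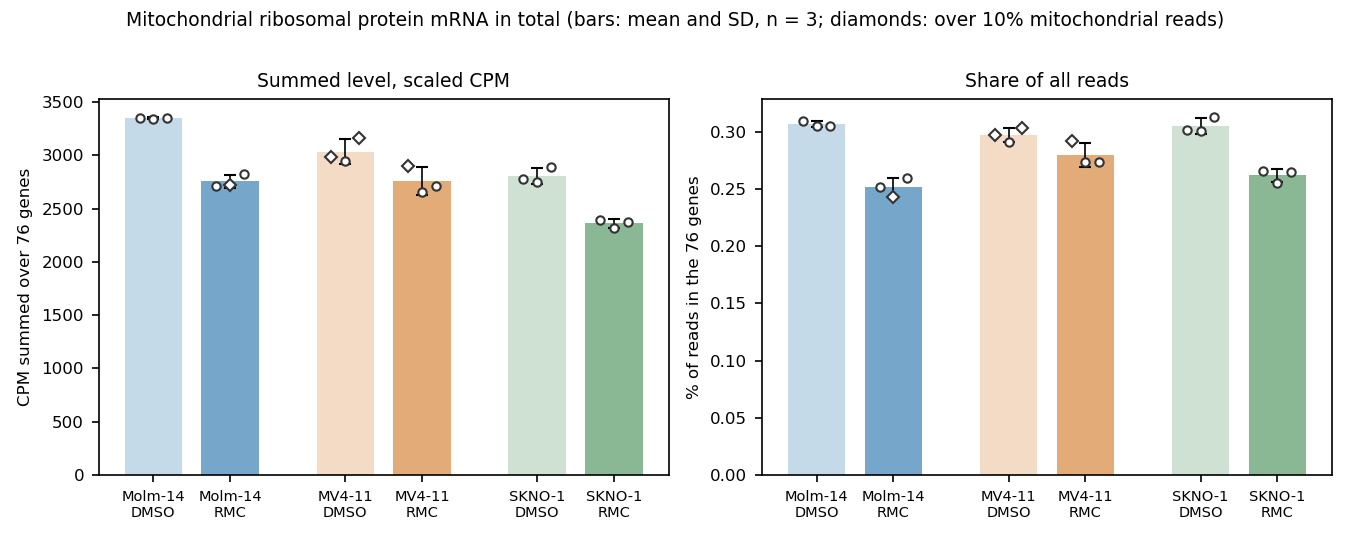
Summed level of the 76 genes in each library, as scaled CPM (left) and as a percentage of all reads (right), with bars for the mean and SD of 3 replicates and diamonds for libraries over 10% mitochondrial reads. The treated bars are lower in all 3 lines on both scales, with the smallest gap in MV4-11.

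Many of these transcripts were lower after RMC-4550, with fewer calls for MV4-11 than for the other lines, a difference of counts that was not itself tested. Molm-14 had 36 of the 76 genes called lower and 1 called higher at a limma adjusted p under 0.05, where 25.1% of all genes tested were called lower, 21.5% higher and 46.6% either way. The figures for MV4-11 were 10 lower and 1 higher, against 8.03%, 5.85% and 13.9% of all genes. SKNO-1 had 23 lower and 0 higher, against 16.2%, 10.8% and 27.0%, and 0 members were higher at an unadjusted p under 0.05. The members' share called lower was thus 47.4% for Molm-14, 13.2% for MV4-11 and 30.3% for SKNO-1. The median log2 change over the 76 was -0.34, -0.17 and -0.25 in that order, beside -0.06, -0.01 and -0.05 over all genes tested. Changes were negative for 67, 51 and 67 of the 76.

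The 3 treated libraries were all below the 3 DMSO libraries for 43 members in Molm-14 (background 33.0%, share of members 56.6%), for 16 in MV4-11 (background 13.5%) and for 51 in SKNO-1 (background 35.4%). They were all above for 3 members in Molm-14 (background 26.9%) and for 2 each in MV4-11 (11.1%) and SKNO-1 (26.6%). The SE of a member's log2 change had a median of 0.14 and ran from 0.07 for MRPS5 to 0.34 for MRPS18A. Without the 4 libraries over 10% mitochondrial reads, the members' median change was -0.28 for Molm-14 and -0.14 for MV4-11, where 1 DMSO library was left. SKNO-1 has no such library, so its changes stayed the same. In a separate fit for each line MV4-11 had 0 members called by limma, with 13 at an unadjusted p under 0.05, and SKNO-1 had 49. No share of all genes called is given for separate fits or with a library left out, so these counts have no background. Leaving out 1 MV4-11 library moved the MV4-11 count of 11 to 29 (DMSO replicate 2), 17 (RMC-4550 replicate 1) or 7 (RMC-4550 replicate 2, or replicate 3), and SKNO-1 had 15 without DMSO replicate 3.

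**Figure D2:**
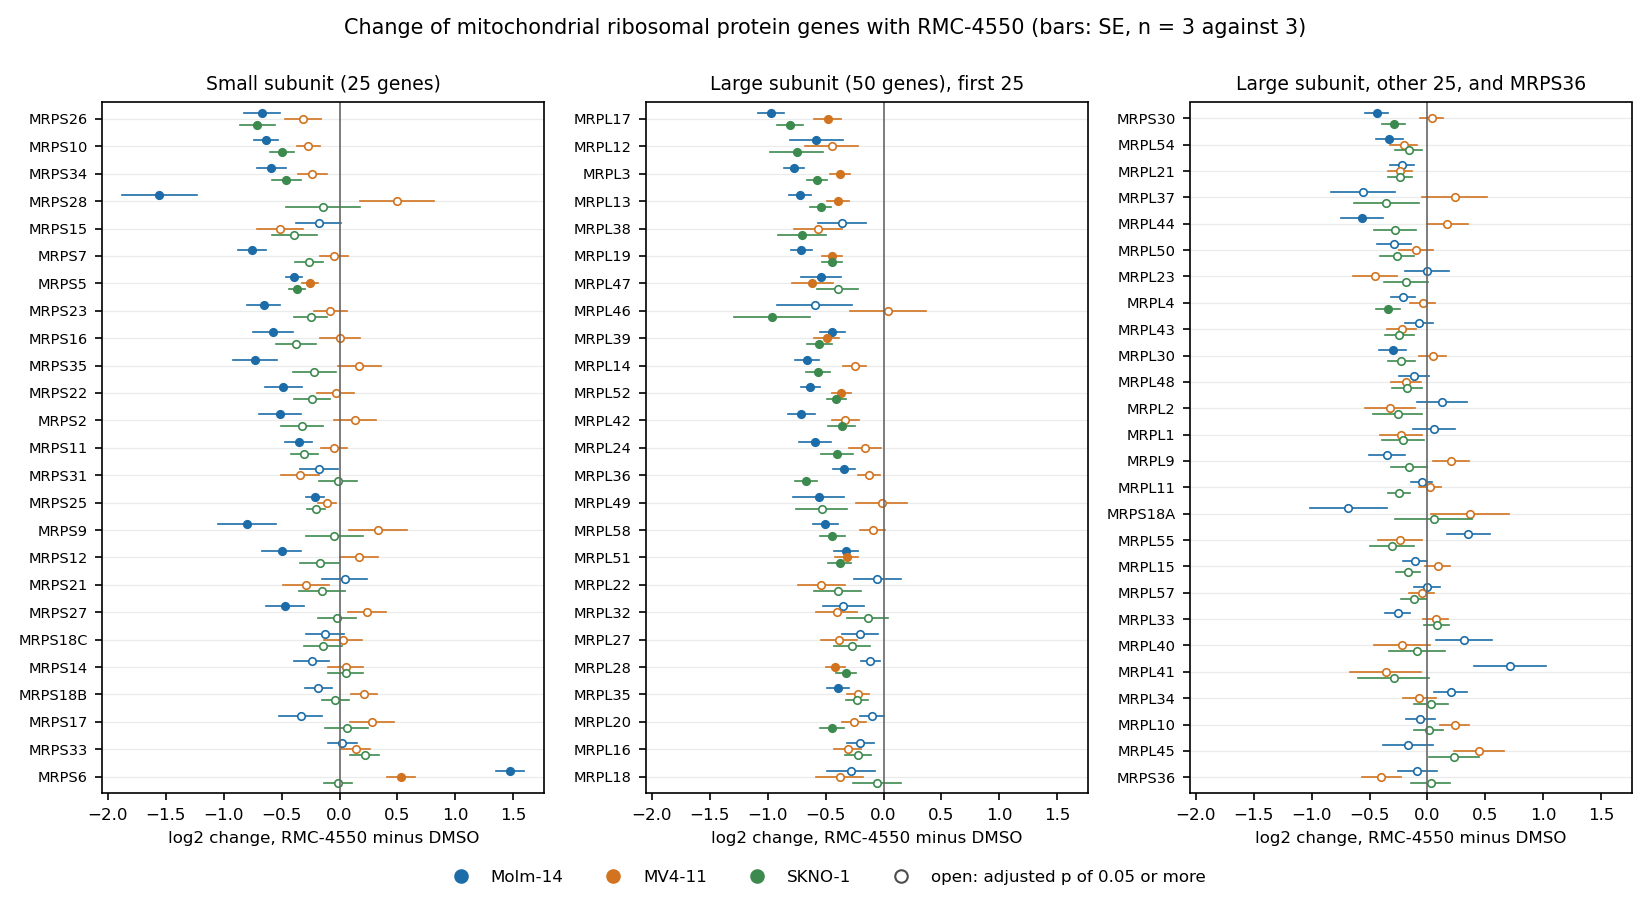
Log2 change with RMC-4550 for each of the 76 members, by subunit and ordered by the mean over the lines, with bars for the SE (3 samples against 3) and filled points for a limma adjusted p under 0.05. Most filled points lie left of 0, and MRPS6 alone has filled points on the right.

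Called lower in each of the 3 lines were 8 members (10.53%, where 5.79% of the 12811 genes tested in all 3 lines were): MRPL3, MRPL13, MRPL17, MRPL19, MRPL39, MRPL51, MRPL52 and, from the small subunit, MRPS5. None was called higher in all 3 lines (background 3.11%). Another 10 were called lower in both other lines and not called in MV4-11 (background 7.01%), 17 were called lower in Molm-14 and not called elsewhere (background 12.5%), and 4 were so called in SKNO-1 (background 3.64%). These patterns of calls do not test whether the lines differ. A further 34 were called in no line (44.7%, against 42.5% of all genes). The same count of 8 was 14 without the libraries over 10% mitochondrial reads, and 5 without MV4-11 RMC-4550 replicate 2 or without replicate 3. It was 0 with a separate fit for each line, since no member was called in MV4-11 there. The share of all genes with this pattern is not given for these alternatives.

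MRPL17 encodes bL17m, a large-subunit protein with a bacterial counterpart, and had the largest fall of any member with at least 5 CPM in Molm-14 and in SKNO-1. Its gene lies at chr11:6680782-6683401 on the minus strand. Molm-14 had 44.3, 42.7 and 43.5 CPM in DMSO and 22.2, 24.0 and 20.5 CPM after RMC-4550. SKNO-1 went from 58.4, 60.1 and 60.4 CPM to 36.9, 30.7 and 34.9 CPM. MV4-11 went from 61.0, 49.97 and 63.0 CPM to 48.9, 36.6 and 39.3 CPM. The groups were apart in every line, with the narrowest gap in MV4-11. The log2 change was -0.97 in Molm-14 (SE 0.11, limma adjusted p 5.8e-06), -0.81 in SKNO-1 (6.8e-05) and -0.48 in MV4-11 (0.0093). The MV4-11 call was lost without RMC-4550 replicate 2 of that line, at -0.39.

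MRPL3 encodes uL3m, whose bacterial relative lies near the peptidyl transferase centre, and its gene is at chr3:131462212-131502983 on the minus strand. In Molm-14 it fell from 118, 116 and 104 CPM to 65.2, 63.5 and 68.8 CPM. SKNO-1 fell from 88.4, 80.04 and 81.6 CPM to 61.3, 52.8 and 54.3 CPM. In both lines no treated library reached a DMSO library. MV4-11 had 91.9, 87.4 and 103 CPM in DMSO and 77.5, 69.9 and 69.7 CPM with RMC-4550, again with no overlap. The log2 changes were -0.78 (limma adjusted p 3.7e-06), -0.57 (0.00014) and -0.38 (0.0080) in Molm-14, SKNO-1 and MV4-11.

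MRPL13, MRPL19, MRPL39 and MRPL52 are the other large-subunit genes that the rule named for a call in all lines. MRPL19, for bL19m at the subunit interface, had 41.9, 39.7 and 41.3 CPM in Molm-14 DMSO and 24.7, 25.9 and 24.5 CPM after RMC-4550 (log2 change -0.71). Its change was -0.45 in MV4-11 and -0.44 in SKNO-1. MRPL13, for uL13m, changed by -0.72, -0.39 and -0.54 for Molm-14, MV4-11 and SKNO-1. The order was different for MRPL39, a mitochondria-specific protein related in sequence to threonyl-tRNA synthetase, which changed by -0.44, -0.49 and -0.55 in the same order of lines. MRPL52, another mitochondria-specific protein, changed by -0.63, -0.37 and -0.41. All of these changes passed the limma test, with adjusted p between 1.1e-05 and 0.0090. For each of these 4 genes the treated and DMSO libraries did not overlap in any line, with MRPL13 in MV4-11 at 38.9, 40.7 and 38.2 CPM against 32.7, 29.3 and 27.9 CPM. The MRPL13 call in MV4-11 was lost without RMC-4550 replicate 3 of that line, at -0.34. MRPL51, a mitochondria-specific protein, changed by -0.32, -0.32 and -0.38 (limma adjusted p 0.016, 0.048 and 0.011), and was called lower in all 3 lines under 7 of 29 alternatives, against 27 or 28 of 29 for MRPL3, MRPL13, MRPL17, MRPL19, MRPL39 and MRPL52.

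**Figure D3:**
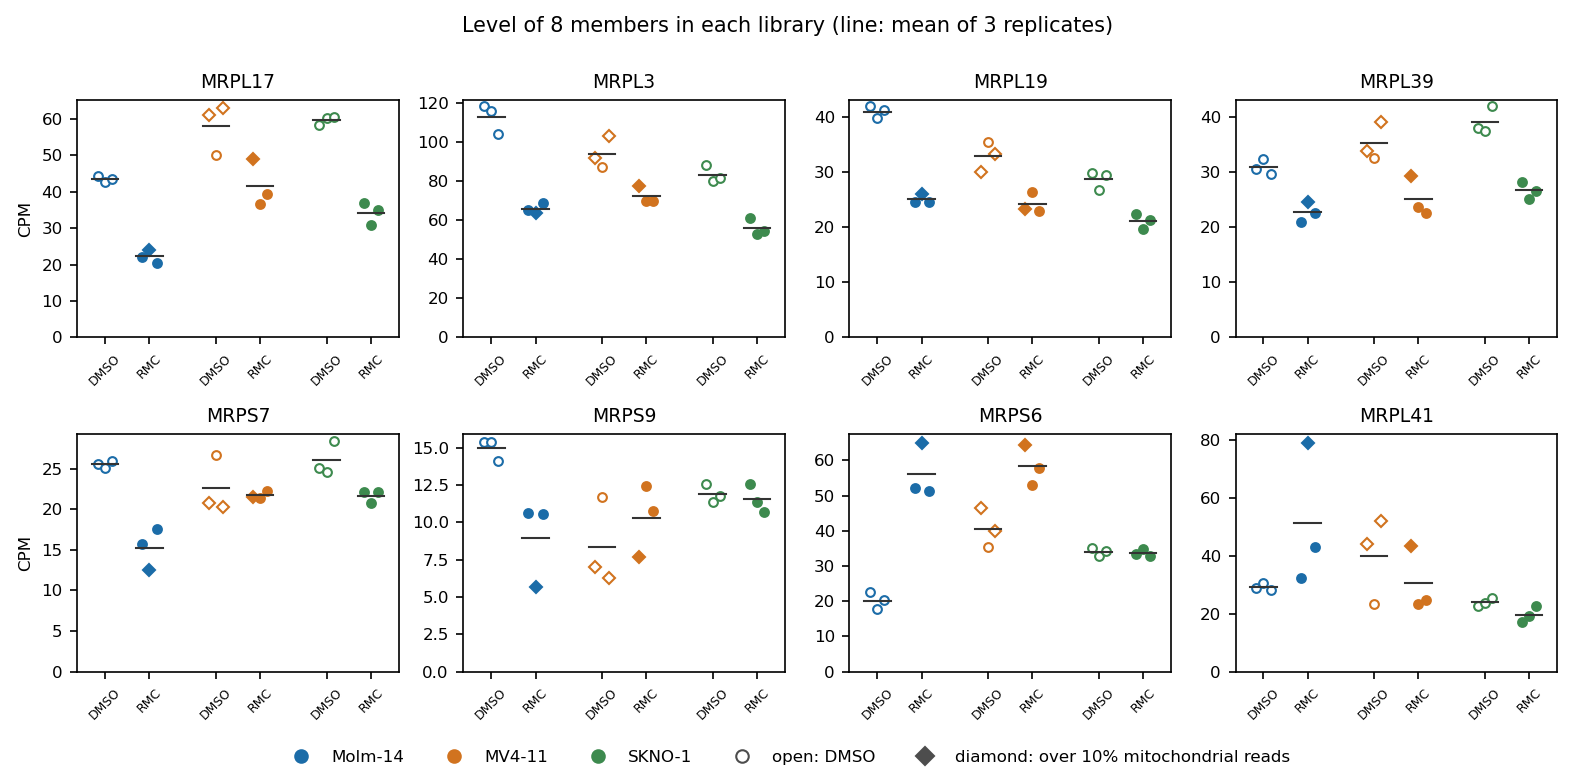
CPM in each library for 8 members, with open symbols for DMSO, filled symbols for RMC-4550, diamonds for libraries over 10% mitochondrial reads and a line at the mean of 3 replicates. MRPL17, MRPL3, MRPL19 and MRPL39 are lower after treatment in all lines, MRPS6 is higher in Molm-14 and MV4-11, and MRPS9 and MRPL41 differ between diamonds and other symbols inside a group.

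Other large-subunit genes were called in some lines. MRPL36, for bL36m, had 18.6, 17.6 and 19.7 CPM in SKNO-1 DMSO and 11.3, 13.0 and 10.9 CPM with RMC-4550 (log2 change -0.67, limma adjusted p 8.6e-05). It changed by -0.34 in Molm-14 (0.0086) and by -0.13 in MV4-11 (0.45). MRPL28 moved in the other order, with -0.42 in MV4-11 (0.0031), -0.32 in SKNO-1 (0.0085) and -0.12 in Molm-14 (0.27). MRPL47, for uL29m near the exit of the peptide tunnel, had the largest fall in MV4-11, from 35.4, 25.9 and 42.8 CPM to 28.99, 19.6 and 19.2 CPM (-0.61, 0.027). Its MV4-11 groups overlapped, since the low DMSO library, replicate 2, was under the highest treated library. The other DMSO libraries, replicates 1 and 3, were those over 10% mitochondrial reads. Over MV4-11 libraries under 10%, with 1 DMSO library left, the change was -0.41 for MRPL47 and -0.27 for MRPL28. Over those above 10%, with 1 treated library, it was -0.42 and -0.41. The MV4-11 call of MRPL47 was lost without DMSO replicate 1 (-0.59) or replicate 3 (-0.45) and without RMC-4550 replicate 2 (-0.52) or replicate 3 (-0.51). MRPL12, for the stalk protein bL12m that recruits translation factors, changed by -0.75 in SKNO-1 (0.023), from 5.998, 7.57 and 6.87 CPM to 3.24, 4.96 and 4.05 CPM. That call was lost without any 1 of 4 SKNO-1 libraries, and 68.2% of the MRPL12 exon bases lie in exons of another gene on the same strand.

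Calls by subunit were counted next, and the difference between subunits was not tested. In Molm-14 16 of 25 small-subunit genes were called lower and 1 higher (median log2 change -0.47), beside 20 and 0 of 50 large-subunit genes (median -0.31). MV4-11 had a small-subunit count of 1 lower and 1 higher (median 0.00), beside 9 and 0 large-subunit genes (median -0.23). In SKNO-1 it was 4 lower and 0 higher (median -0.20), beside 19 and 0 (median -0.29). Among libraries under 10% mitochondrial reads the medians of the subunits were closer: -0.31 and -0.26 for small and large in Molm-14, and -0.10 and -0.17 in MV4-11, where only 1 DMSO library was left. In Molm-14, 20 of 44 members classed as having a bacterial counterpart and 16 of 32 classed as mitochondria-specific were called lower.

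MRPS7, for uS7m in the head of the small subunit, had 25.6, 25.03 and 25.9 CPM in Molm-14 DMSO and 15.7, 12.6 and 17.5 CPM after RMC-4550. The groups did not overlap, and the log2 change was -0.75 (SE 0.12, limma adjusted p 0.00012). In MV4-11 it had 20.8, 26.7 and 20.3 CPM against 21.5, 21.4 and 22.2 CPM, where a single DMSO library was above the rest (-0.05, 0.86). SKNO-1 changed by -0.26 (0.12). MRPS26, for mS26, was called in Molm-14 (-0.67, 0.0023) and in SKNO-1 (-0.71, 0.0027), where it went from 18.1, 17.0 and 16.7 CPM to 11.9, 9.84 and 10.0 CPM. MRPS10, for uS10m, had a like pattern, with -0.63 in Molm-14 (0.00012), -0.50 in SKNO-1 (0.0018) and -0.27 in MV4-11 (0.099). MRPS5, for uS5m at the messenger entry, was lower in each line, by -0.39, -0.26 and -0.37 for Molm-14, MV4-11 and SKNO-1, and was named after its values were seen (limma adjusted p 0.00038, 0.027 and 0.0012). It was called lower in all 3 lines under 21 of 29 alternatives, and not so called with other scalings, with no filter on low values, with separate fits, or without MV4-11 DMSO replicate 3, RMC-4550 replicate 2 or RMC-4550 replicate 3.

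MRPS9 and MRPS35 fell in Molm-14 and moved with the libraries over 10% mitochondrial reads. MRPS9, for uS9m, had 15.4, 15.4 and 14.1 CPM in Molm-14 DMSO and 10.6, 5.64 and 10.6 CPM with RMC-4550, the lowest value being replicate 2, the library at 15.0% mitochondrial reads. Its change was -0.80 (limma adjusted p 0.015), and -0.50 without that library, where the call was lost. The call was kept under the other 28 alternatives. In MV4-11 DMSO it had 6.995, 11.7 and 6.28 CPM, with both libraries over 10% below the other. MRPS35, for mS35, changed by -0.73 in Molm-14 (0.0049) and by -0.52 over its libraries under 10%. Its MV4-11 change was 0.17 (0.62), and -0.19 over libraries under 10%.

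MRPS6 was the only member called higher in any line in the fit over all 18 libraries. It encodes bS6m of the small subunit, and its gene spans chr21:34073224-34143034 on the plus strand. In Molm-14 it had 22.5, 17.8 and 20.3 CPM in DMSO and 52.2, 65.0 and 51.2 CPM after RMC-4550. In MV4-11 it had 46.5, 35.3 and 40.0 CPM and then 64.3, 53.1 and 57.8 CPM. Treated and DMSO libraries were apart in both FLT3-ITD lines, while in SKNO-1 they overlapped, at 35.0, 32.8 and 34.3 CPM against 33.4, 34.8 and 33.0 CPM. The log2 change was 1.47 for Molm-14 (SE 0.12, limma adjusted p 1.5e-07), 0.53 for MV4-11 (0.0073) and -0.01 for SKNO-1 (0.96). It was 1.36 in Molm-14 and 0.65 in MV4-11 over libraries under 10% mitochondrial reads. In MV4-11 the call was lost with a separate fit for that line. Other settings called a few more members higher, all named after their values were seen. Without the libraries over 10%, these were MRPL41 in Molm-14 (0.35) and MRPL45 (0.23) and MRPS33 (0.22) in SKNO-1. Without MV4-11 DMSO replicate 2, they were MRPL45 (0.71), MRPS27 (0.46) and MRPL10 (0.37) in MV4-11, and MRPL41 (0.71) and MRPL55 (0.35) in Molm-14. MRPL41 was called in Molm-14 as well without RMC-4550 replicate 1 of that line (0.996) or of MV4-11 (0.71).

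The printed MRPS6 window is also the RefSeq window of SLC5A3, the sodium/myo-inositol cotransporter gene, and 9.61% of MRPS6 exon bases lie in exons of other genes on the same strand, SLC5A3 among them. SLC5A3 had 16.6, 17.2 and 15.5 CPM in Molm-14 DMSO and 54.7, 23.1 and 43.1 CPM after RMC-4550 (log2 change 1.21, limma adjusted p 0.0024). Its low treated library was replicate 2, the one over 10%, in which MRPS6 was highest. The change of SLC5A3 was 0.68 in MV4-11 (0.13) and -0.13 in SKNO-1 (0.78). Reads that fall in shared exons cannot be assigned to either gene from this table, since the counting rule is not given in the sources used here.

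A direct test of the difference between lines found few members. In the change of SKNO-1 minus the mean change of Molm-14 and MV4-11, 1 member was called (background 1.35% higher, 2.47% lower and 3.82% either way), and it was MRPS6 at -1.01 (limma adjusted p 0.00076). In the change of Molm-14 minus that of MV4-11, 8 members were lower and 1 was higher, against 9.11% and 10.3% of all genes tested, 19.4% either way. The Molm-14 and MV4-11 libraries enter both contrasts. The higher one was again MRPS6, at 0.94 (0.0019). Of the 8, 5 were small-subunit genes: MRPS28 (-2.05, 0.0067), MRPS9 (-1.13, 0.035), MRPS35 (-0.90, 0.029), MRPS7 (-0.71, 0.011) and MRPS27 (-0.71, 0.044). The 3 large-subunit genes were MRPL17 (-0.49, 0.044), MRPS30 (-0.47, 0.025) and MRPL3 (-0.40, 0.035). MRPS27, MRPS28 and MRPS30 fell outside the naming rule for this contrast and were named after their values were seen.

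These differences rested in part on the libraries over 10% mitochondrial reads, which lie in the RMC-4550 arm of Molm-14 and mostly in the DMSO arm of MV4-11. Without them the Molm-14 minus MV4-11 difference was -0.33 for MRPS7, -0.33 for MRPS35 and -0.49 for MRPS9, and these 3 calls were lost. With the same libraries left out, MRPS27 shrank from -0.71 to -0.20 and MRPS30 from -0.47 to -0.16. MRPL17 (-0.63) and MRPL3 (-0.43) did not shrink. That fit leaves 1 MV4-11 DMSO library. The MRPS28 difference was -1.58 there and -1.10 on the log2(CPM + 1) scale, where it was still called. The count of 9 itself ran from 2, without Molm-14 DMSO replicate 1, to 32, without MV4-11 DMSO replicate 2. MRPS28 was at 1.89, 1.90 and 2.23 CPM in Molm-14 DMSO and at 0.765, 0.512 and 0.735 CPM after RMC-4550. In MV4-11 it lay between 0.539 and 1.47 CPM, and its mean over the 18 libraries was the lowest of any member.

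Members also differed between libraries over and under 10% mitochondrial reads inside a group of replicates, with no change of treatment. In each of the 3 groups that hold such a library, 34 of the 76 were higher in it than in the rest of the group, 26 were lower, and 16 differed in sign between groups. The 34 and 26 are 44.7% and 34.2% of the members, where 32.1% and 43.8% of the 12811 genes tested in all 3 lines lay so. At least 0.5 on the log2 scale separated 5 members upward and 4 downward in all 3 groups, 6.58% and 5.26% of the members, beside 5.43% and 10.1% of those genes. MRPL41, a mitochondria-specific large-subunit protein, was the furthest upward, by a mean of 0.99. It had 32.4, 78.9 and 43.1 CPM in Molm-14 RMC-4550, 44.2, 23.2 and 51.9 CPM in MV4-11 DMSO and 43.3, 23.4 and 24.7 CPM in MV4-11 RMC-4550. In each of these groups the libraries over 10% held the highest values. MRPL40 (0.75) and MRPL18 (0.66) came next, and MRPL46 (-0.97), MRPS18A (-0.95), MRPL37 (-0.89) and MRPS9 (-0.77) lay furthest downward. MRPL41, MRPL46, MRPS18A and these other members were picked out after their values were seen.

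**Figure D4:**
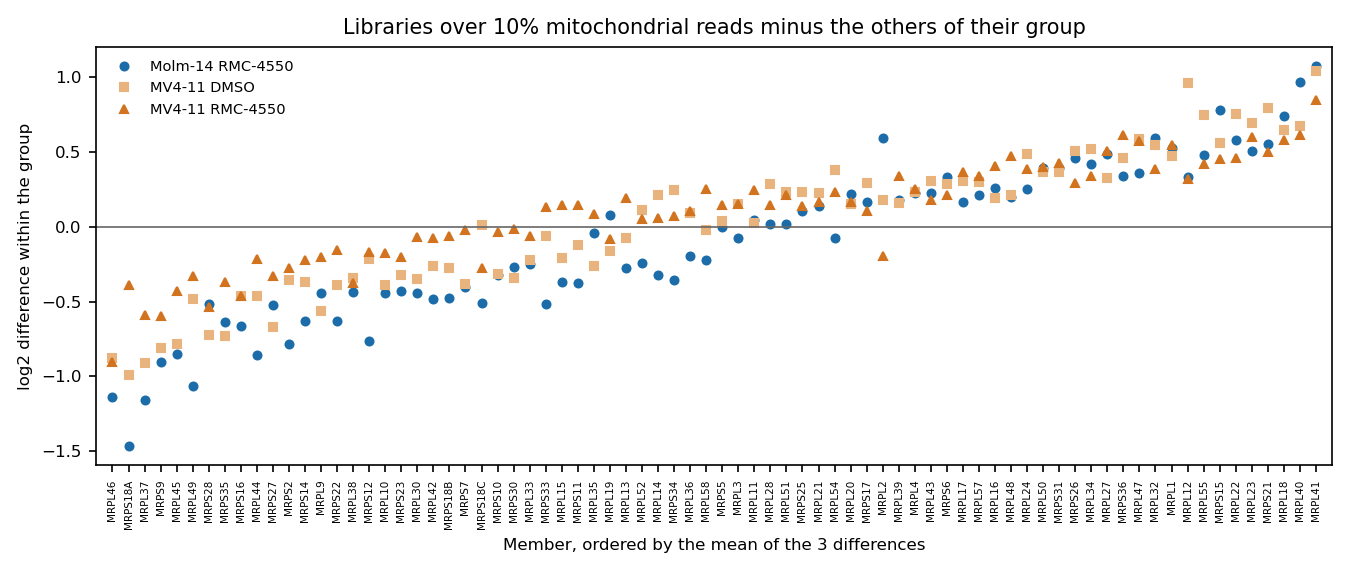
Log2 difference between libraries over 10% mitochondrial reads and the others of the same group, for each of the 76 members in 3 groups, ordered by the mean of the 3 differences. The mean runs from -0.97 for MRPL46 to 0.99 for MRPL41, and the 3 groups differ in sign for 16 members.

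Levels differed widely between members. Per kb of the longest coding transcript, the mean over the DMSO libraries ran from 1.36 CPM per kb for MRPL38 to 81.4 CPM per kb for MRPL18, with a median of 24.9. After MRPL18, a protein of the central protuberance, the highest were MRPL37 at 68.4 and MRPS15, for uS15m, at 63.4 CPM per kb. The lowest after MRPL38 were MRPS28 at 1.71 and MRPS17 at 1.90 CPM per kb. In plain CPM over the 18 libraries, 4 members were under 5 CPM, 10 lay from 5 to 20, 43 from 20 to 50, and 19 were at 50 or more.

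The lowest levels went with overlap. The 4 members under 5 CPM (MRPL38, MRPL46, MRPS17 and MRPS28) each shared 11.3% to 37.5% of their exon bases with another gene on the same strand in GENCODE 29. Of the 72 at or above 5 CPM, 4 shared at least 10%, and their median was 0%. MRPS24, left out by level, shared 23.2% of its exon bases with the read-through gene URGCP-MRPS24. Over all 76, 62 shared none. How reads in shared exons were counted is not given in the sources used here, and the part of overlap in these levels was not tested.

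**Figure D5:**
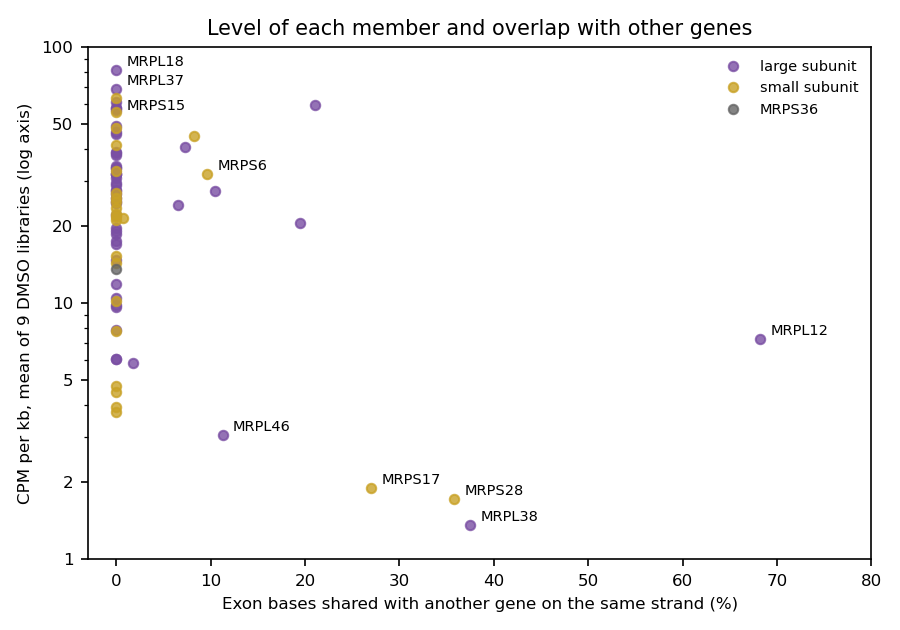
Mean level of each member in the 9 DMSO libraries (CPM per kb, log axis) against the percentage of its exon bases that lie in exons of another gene on the same strand. MRPL38, MRPS28, MRPS17 and MRPL46 sit lowest, all with 11.3% or more shared.

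MRPS18A, MRPS18B and MRPS18C descend from a single bacterial gene, and in mammals sit at different places of the ribosome. Their DMSO levels were 11.8, 48.1 and 3.92 CPM per kb. None was called with RMC-4550 in any line. MRPS18B changed by -0.18, 0.21 and -0.04 for Molm-14, MV4-11 and SKNO-1, and MRPS18C by -0.12, 0.03 and -0.14. MRPS18A changed by -0.68 in Molm-14, with 10.7, 4.10 and 12.1 CPM after RMC-4550, and by -0.19 over the libraries under 10%.

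In DMSO, 52 members were called in at least 1 of the 3 comparisons of lines, 7 in all 3 and 24 in none. Among all 14666 genes tested in the 3 comparisons these patterns took 80.1%, 17.8% and 19.9%. MV4-11 minus Molm-14 had 7 members higher and 21 lower (background 26.1% and 27.9%, 54.0% either way). SKNO-1 minus Molm-14 had 6 higher and 30 lower (32.5% and 32.6%, 65.1% either way), and SKNO-1 minus MV4-11 had 10 higher and 18 lower (19.4% and 22.2%, 41.6% either way). Each line's DMSO libraries enter 2 of these comparisons and also its own drug comparison. With libraries scaled to their read totals, the splits were 13 higher and 14 lower, 15 and 16, and 15 and 9. Under that scaling the median of all genes moved by 0.25 for SKNO-1 minus Molm-14 and by 0.15 for SKNO-1 minus MV4-11. No share of all genes called is given for it, so these splits cannot be set against a background.

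Some members kept a clear order of lines. MRPS25, for mS25 of the small subunit, had 95.5, 93.8 and 96.0 CPM for Molm-14, 76.4, 63.4 and 72.6 CPM for MV4-11 and 43.6, 42.3 and 43.9 CPM for SKNO-1. The 3 lines did not overlap, and SKNO-1 minus Molm-14 was -1.14 (limma adjusted p 1.9e-09). MRPS10 had the same order, at 82.1, 77.5 and 76.9 CPM for Molm-14, 42.8, 55.3 and 46.1 CPM for MV4-11 and 37.3, 35.4 and 35.3 CPM for SKNO-1 (-1.13 for SKNO-1 minus Molm-14). MRPS16 was -1.15 on that comparison and MRPL14 was -1.10. MRPL10, for the stalk base protein uL10m, was highest in SKNO-1, at 77.6, 79.5 and 84.6 CPM, against 55.0, 56.5 and 56.5 CPM in Molm-14 (0.52, 0.0016).

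Some differences that involve MV4-11 DMSO moved with its libraries over 10% mitochondrial reads. MRPS6 was 1.01 higher in MV4-11 than in Molm-14 (limma adjusted p 3.7e-06), was 0.81 without the libraries over 10%, and this call was kept under each alternative run. MRPL40 (0.76, 0.015) and MRPL23 (0.61, 0.014) were also higher there, but were 0.22 and 0.21 once the mitochondrial share was a covariate, and no longer called. MRPL9 (-0.81), MRPS9 (-0.90) and MRPS16 (-0.81) were lower in MV4-11 than in Molm-14. Without the libraries over 10% they were still called, at -0.44, -0.36 and -0.50. SKNO-1 minus MV4-11 was 0.85 for MRPL37 (0.023) and 0.67 for MRPL49 (0.023). Both were 0.16 with that covariate. Without the libraries over 10%, which leaves 1 MV4-11 DMSO library, MRPL23 was not called (0.15), while MRPL40 (0.31), MRPL37 (0.24) and MRPL49 (0.35) were. All 4 of these calls were also lost without MV4-11 DMSO replicate 1 (0.70, 0.55, 0.74 and 0.61 for MRPL40, MRPL23, MRPL37 and MRPL49) and without replicate 3 (0.59, 0.45, 0.66 and 0.58). Those of MRPL37 and MRPL49 were lost as well without SKNO-1 DMSO replicate 2 or replicate 3, and that of MRPL49 without replicate 1. On the same comparison MRPL14 (-0.77), MRPS25 (-0.71) and MRPL47 (-0.69) were lower in SKNO-1. They were still called without the libraries over 10%, at -0.62, -0.55 and -0.30.

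Members with and without a promoter match had these calls, where 25.1%, 8.03% and 16.2% of all genes were called lower for Molm-14, MV4-11 and SKNO-1. In Molm-14, 23 of the 46 members with an ETS, NRF1 or YY1 match were called lower, and 10 of the 21 with none of these. The median log2 change was -0.35 in both sets. In SKNO-1 the counts were 16 of 46 and 6 of 21, with medians of -0.26 and -0.30. In MV4-11 they were 6 of 46 and 3 of 21, with medians of -0.20 and -0.05. By motif, 14, 5 and 10 of the 29 members with an ETS match were called lower for Molm-14, MV4-11 and SKNO-1. The counts were 5, 1 and 3 of the 9 with an NRF1 match and 11, 3 and 9 of the 20 with a YY1 match.

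Of 8 tested genes for factors linked to these promoters, 4 were called lower for Molm-14, 1 for MV4-11 and 2 for SKNO-1 (background 25.1%, 8.03% and 16.2%). YY1 changed by 0.11, 0.04 and -0.10 for Molm-14, MV4-11 and SKNO-1 and was not called. NRF1 rose in Molm-14 (0.42, limma adjusted p 0.0031), and GABPA, the ETS-family subunit of the nuclear respiratory factor GABP, fell there (-0.43, 0.019). GABPB1, its partner subunit, was called lower in each line (-0.68, -0.33 and -0.34). PPRC1, a coactivator related to PGC-1, fell by 1.10 in Molm-14 and by 0.97 in SKNO-1 on the log2 scale and changed by 0.09 in MV4-11 (0.69). MYC, which binds the E-box, changed by -1.71 for Molm-14 (0.0049), 0.58 for MV4-11 (0.45) and -0.86 for SKNO-1 (0.17).

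Other genes of mitochondrial translation were read from lists. All genes tested had 25.1%, 8.03% and 16.2% called lower for Molm-14, MV4-11 and SKNO-1, and 21.5%, 5.85% and 10.8% higher. Of 24 assembly factors tested, 14 were called lower for Molm-14, 2 for MV4-11 and 6 for SKNO-1, with 2, 0 and 2 higher. In MV4-11 the shares lower were 8.33% of assembly factors and 6.67% of translation factors, near or below that of all genes. TFB1M, which methylates the small-subunit ribosomal RNA, was lower in each line (-1.20, -0.57 and -0.43), as was MTERF3 (-0.54, -0.49 and -0.69). Of the mitochondrial translation factors, 7 of 16 were lower for Molm-14 (1 higher), 1 of 15 for MV4-11 and 5 of 15 for SKNO-1 (1 higher). GFM1, the elongation factor that moves the ribosome along, changed by -1.14 for Molm-14 (limma adjusted p 0.0014), -0.12 for MV4-11 (0.80) and -0.80 for SKNO-1 (0.024). SLIRP, which with LRPPRC stabilises mitochondrial messengers, was lower in each line (-0.72, -0.67 and -0.56).

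Of 19 mitochondrial aminoacyl-tRNA synthetases, 9, 1 and 7 were lower for Molm-14, MV4-11 and SKNO-1, with 0 higher. These are 47.4%, 5.26% and 36.8%, beside 25.1%, 8.03% and 16.2% of all genes tested. Of 13 genes for copying and transcribing mitochondrial DNA, 9, 2 and 4 were lower. TFAM, which packs that DNA and starts its transcription, changed by -1.19 for Molm-14 (limma adjusted p 2.2e-05), -0.34 for MV4-11 (0.19) and -0.44 for SKNO-1 (0.049). The 5 mitoribosomal proteins under other symbols had 3, 1 and 2 called lower, with DAP3 at -0.47 in Molm-14 (0.0032), CHCHD1 at -0.38 in MV4-11 (0.033) and GADD45GIP1 at -0.55 in SKNO-1 (0.028).

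Of the 13 messengers that the mitochondrial ribosome translates, 0 were called by limma in each line, and 1, 0 and 0 had an unadjusted p under 0.05 for Molm-14, MV4-11 and SKNO-1. Their medians were 0.45, -0.53 and -0.03 in the same order, and their reads are part of the mitochondrial share that split the libraries. Cytosolic ribosomal protein genes, a further comparison, had 3, 1 and 1 of 75 called lower and 2, 0 and 0 called higher, with medians of 0.12, -0.09 and 0.02. All genes tested had 25.1%, 8.03% and 16.2% called lower and 21.5%, 5.85% and 10.8% higher. Among the markers, NCAM1 was lower after RMC-4550 by the test for Molm-14 (-0.72) and SKNO-1 (-0.75), and of 7 myeloid markers tested 2 were called higher in each line, with 1, 0 and 0 lower (median log2 change -0.06, 0.23 and 0.24 for Molm-14, MV4-11 and SKNO-1). CSF1R, the monocyte receptor gene, was higher in all 3 lines (2.47, 1.20 and 1.06), and MPO was the one lower in Molm-14 (-1.36). Their part in the members' changes was not tested.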

How the data were processed

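Per the labels' protocols, poly(A) RNA of 18 samples was read by DNA nanoball sequencing. The authors deposited log2 values for 40184 Ensembl gene IDs, and the submitters' processing notes name FastQC, STAR, limma and GRCh38. The counting rule, annotation and strand setting are not given in the sources used here. The deposited log2 values are of (reads + 0.5) per 1000000 of a scaled library, and all values under 200 reads in every library came out whole (tolerance 0.05), so reads and CPM were recovered from them. Symbols, positions and exon overlaps came from GENCODE 29.

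Changes were tested with limma 3.58.1 (R 4.3.3) on the deposited log2 values, in 1 fit over the 6 groups of 3 samples with a variance trend, and Benjamini-Hochberg adjustment over all genes tested in each contrast. Genes needed 1 CPM in 3 samples of the lines compared. A call is an adjusted p under 0.05. The steps were tested on simulated data. Figures used matplotlib 3.10.9 (Python 3.11.15). Depth was 17434810 to 19959917 reads per library.

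The members and lists were chosen with earlier results of these data known. Named by rule were up to 5 called members of at least 5 CPM with the largest rise and fall in each line, up to 6 called in all 3 lines, and up to 3 per direction in each contrast between lines. The 3 highest and 3 lowest members per kb, the MRPS18 paralogs, members below 1 CPM, up to 3 called genes per other list, and MYC, NRF1, GABPA, YY1 and TFAM were also named. Other members were named after their values were seen, as said beside them. Alternatives were another pseudocount (1 CPM), other filters on low values, other scalings, voom weights, separate fits, a replicate block, the mitochondrial share as a covariate, and libraries left out. Scaling to read totals was added after seeing the data. A few genes of the marker and other lists are not reported here by name.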

Additional observations from a re-analysis of the deposited data

Results flagged for a closer look

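The change with RMC-4550 differed between lines, by the test of the difference itself, for 9 members. In Molm-14 minus MV4-11, 8 of the 76 were lower and 1 higher, against 9.11% and 10.3% of all genes tested, 19.4% either way. In SKNO-1 against the FLT3-ITD lines 1 was called, against 3.82% of all genes either way. Counted either way, the share of members called was thus below that of all genes in both contrasts. MRPS6 differed by -1.01 in SKNO-1 against the mean of the FLT3-ITD lines, and by 0.94 in Molm-14 against MV4-11, on the log2 scale. The change in Molm-14 minus that in MV4-11 was -2.05 for MRPS28, -1.13 for MRPS9, -0.90 for MRPS35, -0.71 for MRPS7, -0.71 for MRPS27, -0.49 for MRPL17, -0.47 for MRPS30 and -0.40 for MRPL3. Of 28 alternatives run on the contrast of Molm-14 and MV4-11, the call was lost under 17 for MRPS27, 16 for MRPL17, 11 each for MRPS9 and MRPS35, 9 each for MRPS30 and MRPL3, 1 for MRPS7 (without the libraries over 10% mitochondrial reads) and 0 for MRPS6. It was lost under 0 of 24 for MRPS28, which was not tested under the other alternatives and was at -1.10 on the log2(CPM + 1) scale.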

How the results depend on the processing

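Under 11 alternatives and with each of the 18 libraries left out, 49 of 100 calls for named members were kept every time, and 0 changed sign. With separate fits per line, MV4-11 had 0 members called, SKNO-1 49, and 0 were lower in all 3 lines. The mitochondrial share as a covariate gave 20 in MV4-11, 49 in SKNO-1, 18 lower in all 3 lines, 6 for SKNO-1 against the FLT3-ITD lines and 15 for Molm-14 minus MV4-11. Without libraries over 10% mitochondrial reads the counts were 52 in SKNO-1, 14 lower in all 3 lines, 9 for SKNO-1 against the FLT3-ITD lines and 56 for SKNO-1 minus Molm-14 in DMSO. Quantile normalization gave 14 in SKNO-1 and medians of -0.18 in Molm-14 and -0.16 in SKNO-1, and median-ratio scaling gave -0.19 in SKNO-1. A mean of at least 5 CPM gave 2 for SKNO-1 against the FLT3-ITD lines, and no filter on low values gave 3 for Molm-14 minus MV4-11. No share of all genes called is given under these alternatives or with a library left out, so these counts cannot be set against a background. The cause was not tested.

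Leaving out 1 library gave 25 to 41 members called in Molm-14, 7 to 29 in MV4-11, 15 to 28 in SKNO-1 and 5 to 12 lower in all 3 lines. It gave 1 to 2 for SKNO-1 against the FLT3-ITD lines and 2 to 32 for Molm-14 minus MV4-11. In DMSO it gave 19 to 42 for MV4-11 minus Molm-14, 28 to 42 for SKNO-1 minus Molm-14 and 12 to 47 for SKNO-1 minus MV4-11, the last without MV4-11 DMSO replicate 3 and replicate 2. The medians ran from -0.35 to -0.28 in Molm-14, from -0.25 to -0.10 in MV4-11 and from -0.28 to -0.24 in SKNO-1.

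Of comparisons that were not called, 6 changed sign and were then called. With the mitochondrial covariate and without libraries over 10%, MRPL18 was -0.46 and -0.39 for Molm-14 minus MV4-11 and -0.45 and -0.41 for MV4-11 minus Molm-14 in DMSO, MRPL40 was 0.49 and 0.35 for SKNO-1 minus MV4-11 in DMSO, and MRPS15 was -0.35 and -0.28 for MV4-11 minus Molm-14 in DMSO. With the covariate alone, MRPS16 was -0.23 for the MV4-11 change and MRPS18A was 0.35 for MV4-11 minus Molm-14 in DMSO.

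Same-numbered deviations correlated at -0.05 to 0.00 in Molm-14, -0.40 to 0.59 in MV4-11 and 0.01 to 0.13 in SKNO-1. Those of unlike number ran from -0.07 to 0.08, from -0.72 to 0.64 and from -0.08 to 0.05. These values do not settle whether replicate numbers pair the samples. A replicate block gave 34, 10 and 20 members called for Molm-14, MV4-11 and SKNO-1, 7 lower in all 3 lines and 6 for Molm-14 minus MV4-11. Depth limits members under 5 CPM most, and MRPS28 had the lowest mean.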
